A study of Mus musculus with 6 samples.

Results

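The response of parental Beko cells to the γ-secretase inhibitor DAPT was described from 2 of the 6 arrays of the series, 1 from cells given DAPT at 10 μM for 24 h and 1 from cells given its vehicle DMSO for 24 h. Beko is a mouse T-lineage leukaemia cell line. The other 4 arrays came from Beko cells infected with DNMAML-ER or with Notch1-ER, given hydroxytamoxifen at 0.75 μg/mL or ethanol for 48 h. The metabolite is written OHT here, because its labels disagree on the hydroxyl position. OHT switches on the oestrogen receptor part of either fusion. The fusion lines were selected after infection, so they differ from the parental cells in construct, selection, vehicle and time. Each condition was measured on 1 array. The genes described were chosen by level alone: a gene was kept where its highest log2 level over the 6 arrays reached 5.54, the median over all genes of the mean level. This kept 12150 of 22414 genes, whose DAPT minus DMSO difference on the log2 scale is given here, so that a difference of 1 is 2-fold.

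γ-Secretase is the membrane protease that makes the last cut in Notch receptors after ligand binding, and the intracellular part it frees enters the nucleus and switches on genes with RBPJ and Mastermind proteins. DAPT blocks that cut. It also blocks the cut of the other membrane proteins that γ-secretase processes, so it is not an inhibitor of Notch alone. DNMAML, a truncated Mastermind, acts further down by occupying the Notch complex without activating it. In immature T cells Notch1 drives T-lineage commitment and growth, and its activation is a common event in T-cell leukaemia.

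The deposited table lists genes as mouse Ensembl IDs with no symbols. The reference gene table used here held no Ensembl IDs, so 0 of the 22414 could be matched to it. Genes are therefore not assigned names or functions, Notch targets and T-lineage markers were not analysed here, and no sequence is shown. The IDs printed are the 2 with the largest difference in each direction among genes that reached the level floor with DAPT or DMSO. With 1 array per condition there was no replicate error and no test, and every count below is a count by size.

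At a size of 2-fold, 198 genes (1.63% of 12150) differed between DAPT and DMSO. Of these, 128 were higher with DAPT (1.05%) and 70 were lower (0.576%). The excess of higher genes depended on scaling. Higher genes made up 64.6% of the 198. They made up 53.8% of 182 after each array was centred on its median over the 12150 genes, which lay at 7.71 for DAPT and 7.62 for DMSO, with 98 higher and 84 lower. Centred on the median over all 22414 genes instead, which lay at 5.43 for DAPT and 5.55 for DMSO, they made up 78.1% of 242, with 189 higher and 53 lower. The second centring moved the median difference by 0.12, so the split between higher and lower is not settled by these arrays. It was present at 1.5-fold and 2-fold and not at 3-fold or 4-fold. At 1.5-fold 972 genes differed (8%), 622 higher and 350 lower, while at 3-fold 45 differed (0.37%), 23 higher and 22 lower. At 4-fold the count was 16 (0.132%), with 7 higher and 9 lower. At 8-fold it was 2 (0.0165%), both higher.

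Most genes differed little. The central range of the difference, from percentile 25 to 75, ran from -0.18 to 0.23, and percentiles 1 and 99 lay at -0.81 and 1.01. The median was 0.02. Just inside the 2-fold size, 3 higher genes had differences of 1.003 to 1.004, and just outside it 3 had 0.990 to 0.9999. Among lower genes the 3 just inside had -1.03 to -1.01 and the 3 just outside -0.99 to -0.97. The counts at 2-fold thus part genes with nearly equal differences.

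**Figure D1:**
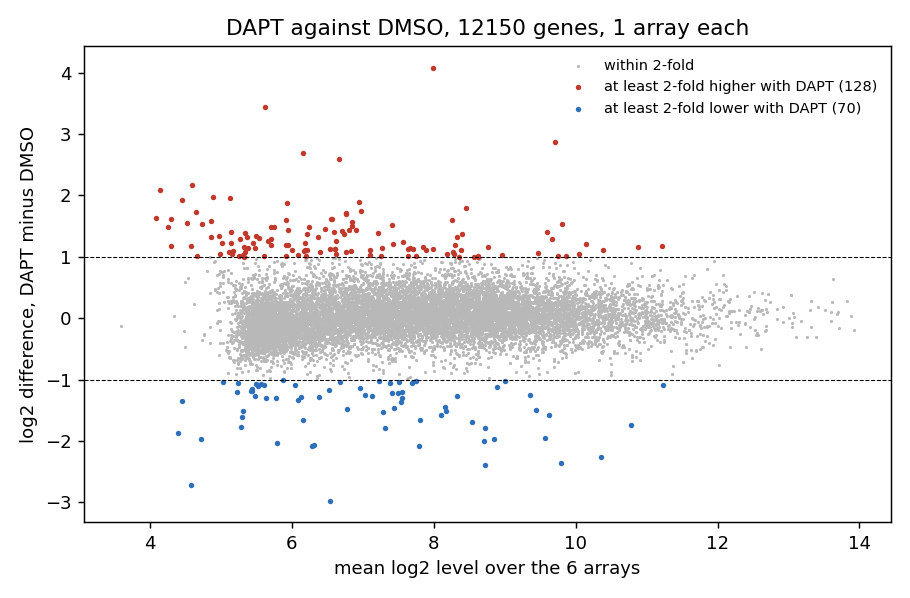
The log2 difference DAPT minus DMSO (vertical axis) is plotted against the mean log2 level over the 6 arrays (horizontal axis) for 12150 genes, 1 point per gene. Dashed lines mark 2-fold; the 128 higher genes gather more at low levels than the 70 lower genes, and 1 gene stands at 4.08.

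With the floor used here, the higher genes lay mostly at low mean levels and the lower genes were spread more evenly. The 12150 genes were divided by mean level over the 6 arrays into 3 classes of 4050. In the lowest class 75 genes were at least 2-fold higher with DAPT and 32 lower. In the middle class 35 were higher and 23 lower, and in the highest class, from a mean log2 level of 8.45 upwards, 18 were higher and 15 lower. The floor was on the highest of the 6 arrays, so a gene of low mean level could enter through a single high array. With the floor on the mean level instead, 92 higher and 54 lower genes were left, and those taken out all lay in the lowest class. The counts in that class thus rest in part on the floor. Against DMSO the vehicle arrays of the fusion lines had more lower than higher genes in the lowest class, with 33 higher and 78 lower for DNMAML-ER with ethanol and 31 higher and 47 lower for Notch1-ER with ethanol. In the highest class they had more higher genes, 52 against 11 lower and 40 against 8 lower.

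Many 2-fold genes crossed the floor between the arrays. Of the 128 higher genes, 45 were at or above 5.54 with DAPT and under it with DMSO, 77 were above it on both arrays, and 6 were under it on both. Of the 70 lower genes, 26 were under the floor with DAPT and at or above it with DMSO, 42 were above it on both, and 2 were under it on both. The median level of the higher genes was 7.36 with DAPT and 6.01 with DMSO, and that of the lower genes 5.99 with DAPT and 7.39 with DMSO.

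Vehicle arrays of parental and fusion-carrying cells differed from each other in about as many genes as DAPT and DMSO did. At 2-fold, 242 genes (1.99%) differed between DNMAML-ER with ethanol and DMSO, and 193 (1.59%) between Notch1-ER with ethanol and DMSO. The ethanol arrays of the fusion lines differed from each other in only 13 genes (0.107%). The standard deviation across genes was 0.36 for DAPT minus DMSO, 0.37 and 0.36 when DMSO was subtracted from the ethanol array of the DNMAML-ER or the Notch1-ER line, and 0.19 between the ethanol arrays. The DMSO array was thus the one of the 3 vehicle arrays that stood apart. It lay at least 2-fold outside the range of the other 2 in 142 genes (1.17%), against 5 (0.0412%) for the DNMAML-ER ethanol array and 3 (0.0247%) for the Notch1-ER ethanol array. Construct, selection, vehicle, time and array cannot be told apart in that difference.

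**Figure D2:**
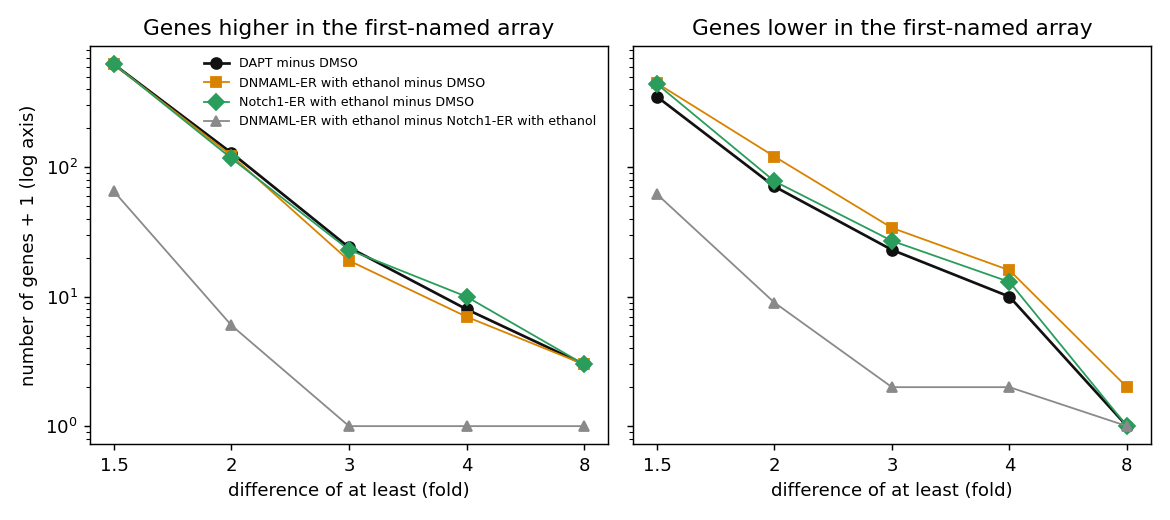
The number of genes plus 1 (vertical axis, log scale) is plotted against the least fold difference counted (horizontal axis), for genes higher (left) and lower (right) in the first-named array of each pair. DAPT minus DMSO runs alongside both ethanol arrays minus DMSO, and the pair of ethanol arrays lies far below, with 5 higher and 8 lower genes at 2-fold.

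Because the DMSO array is the sole control of the DAPT array, each 2-fold gene was set against the other vehicle arrays too. The DAPT level lay at least 2-fold outside the range of all 3 vehicle arrays in 97 of the 198 genes (0.798% of 12150), 68 higher (0.56%) and 29 lower (0.239%). Another 46 higher and 32 lower genes lay outside that range by less than 2-fold. The remaining 14 higher and 9 lower genes had a DAPT level inside the vehicle range, so that the DAPT array did not stand apart for them. For DAPT to be 2-fold from DMSO and yet inside that range, an ethanol array had to lie at least 2-fold from DMSO. In 10 of those 14 and 6 of those 9, the DMSO array was at least 2-fold away from both ethanol arrays. Among all 198, that held for 13 higher and 10 lower genes. Over all 12150 genes, DMSO lay that far from both ethanol arrays, in either direction, in 142 (1.17%). Picking genes by DAPT minus DMSO favoured an outlying DMSO level, so these counts do not measure how often it occurs.

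Set against each ethanol array singly, 80 of the 128 higher genes were at least 2-fold higher with DAPT than with DNMAML-ER and ethanol, and 74 than with Notch1-ER and ethanol. Of the 70 lower genes, 32 and 37 were at least 2-fold lower. The DAPT level enters these differences as well, so genes picked by DAPT minus DMSO were favoured to pass. Of all 12150 genes, 316 were at least 2-fold higher and 157 lower with DAPT than the mean of the ethanol arrays. Over all 6 arrays, DAPT had the highest level in 100 of the 128 higher genes and the lowest in 49 of the 70 lower genes. Where it did not, the DNMAML-ER OHT array most often took its place, in 18 of the higher and 14 of the lower genes. These genes were picked by DAPT minus DMSO, so DAPT was favoured for that place and DMSO could not hold it. The counts therefore do not show that DAPT stood apart.

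**Figure D3:**
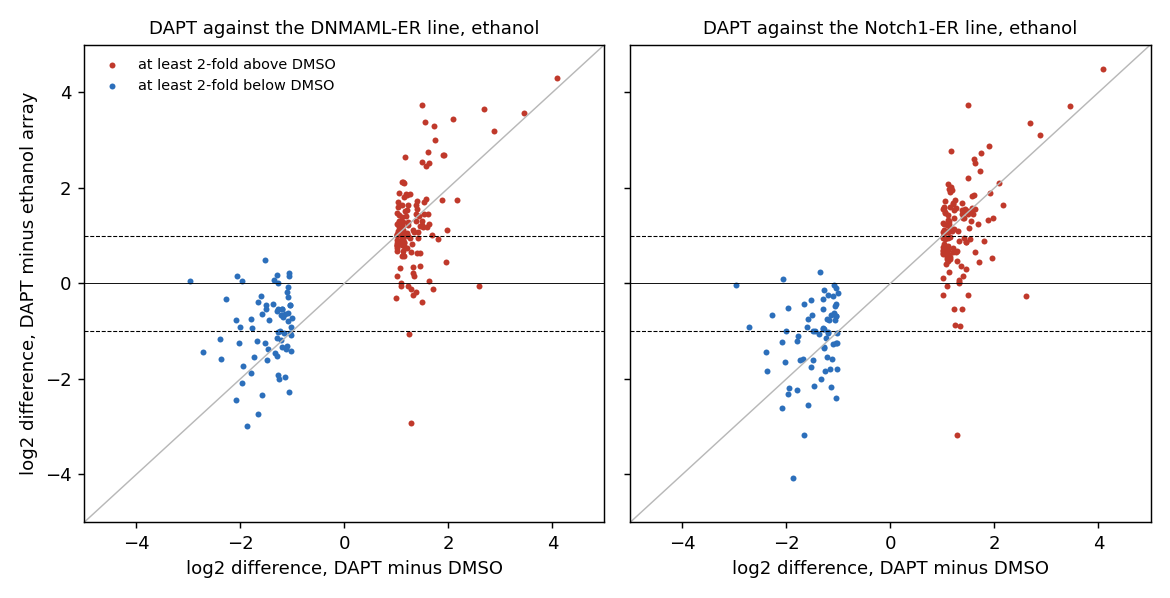
For the 198 genes at least 2-fold from DMSO, the log2 difference DAPT minus ethanol array (vertical axis) is plotted against DAPT minus DMSO (horizontal axis), for the DNMAML-ER line (left) and the Notch1-ER line (right). Dashed lines mark 2-fold and the grey line equal differences. At or above the upper dashed line lie 80 and 74 of the 128 higher genes, while some points reach or cross 0. Both axes hold the DAPT level.

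The 2 genes with the largest positive differences had uniform vehicle levels. ENSMUSG00000029530 had a log2 level of 11.21 with DAPT and 7.12 with DMSO, 10.43 with DNMAML-ER and OHT and 6.90 with its ethanol, and 5.57 with Notch1-ER and OHT and 6.73 with its ethanol. Its difference with DAPT was 4.08, or 17.0-fold, and the DAPT array lay above all 3 vehicle arrays, which spanned only 6.73 to 7.12. ENSMUSG00000076870 had 8.35 with DAPT and 4.91 with DMSO, 7.53 with DNMAML-ER and OHT and 4.79 with its ethanol, and 3.53 with Notch1-ER and OHT and 4.63 with its ethanol. Its difference was 3.45, or 10.9-fold. All 3 of its vehicle levels, DMSO among them, and its Notch1-ER OHT level lay under the floor. Both genes were high on the DAPT and DNMAML-ER OHT arrays, low on the 3 vehicle arrays, and lowest of all with Notch1-ER and OHT.

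The 2 genes with the largest negative differences behaved otherwise. ENSMUSG00000072929 had a log2 level of 6.05 with DAPT and 9.02 with DMSO, 6.28 with DNMAML-ER and OHT and 6.01 with its ethanol, and 5.74 with Notch1-ER and OHT and 6.09 with its ethanol. Its difference of -2.97 was the largest lower one of all 12150 genes, and it came from 1 high array: 5 of the 6 arrays, DAPT among them, lay between 5.74 and 6.28, and DMSO alone was high. Against the mean of the ethanol arrays the DAPT level differed by 0.0042. ENSMUSG00000033520 had 3.26 with DAPT and 5.97 with DMSO, 3.88 with DNMAML-ER and OHT and 4.69 with its ethanol, and 5.52 with Notch1-ER and OHT and 4.18 with its ethanol. The DAPT level was the lowest of the 6, 0.92 under the lowest vehicle level, and only the DMSO level reached the floor. The difference was -2.71 against DMSO and -1.17 against the mean of the ethanol arrays.

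**Figure D4:**
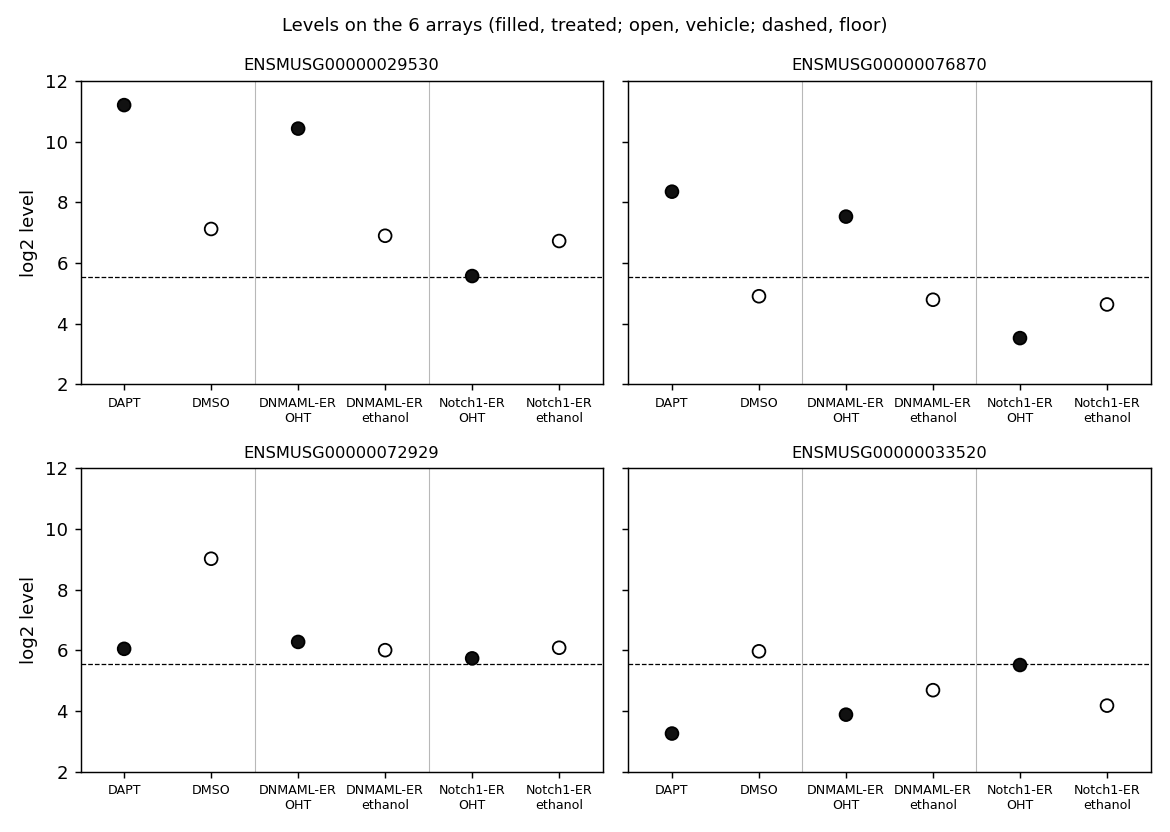
Log2 levels (vertical axis) of the 4 printed genes on each of the 6 arrays (horizontal axis), with treated arrays filled, vehicle arrays open and the floor of 5.54 dashed. The upper genes are high with DAPT and DNMAML-ER OHT only; of the lower genes, ENSMUSG00000072929 is high with DMSO only and ENSMUSG00000033520 is lowest with DAPT.

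Whether a DAPT difference held against a second vehicle array went with its size in the DNMAML-ER pair. The 128 and 70 genes were divided by the Notch1-ER ethanol array, so that neither the 2-fold size nor the division used an array of the DNMAML-ER pair. The ethanol arrays differed from each other in only 13 genes at 2-fold, however, so the division was not independent of the DNMAML-ER ethanol level. Higher genes with a low ethanol level passed the division more easily, and a low ethanol level also raises OHT minus ethanol. For lower genes a high ethanol level acts likewise. The division itself thus favoured larger DNMAML-ER differences in the genes that passed it. The level floor did use all 6 arrays, and 6 higher and 2 lower genes passed it only through arrays other than DAPT and DMSO. With the floor taken from the DAPT, DMSO and Notch1-ER ethanol arrays alone, the DNMAML-ER medians below were 0.78 and 0.23 for higher genes and -0.89 and -0.15 for lower ones. Of the 128 higher genes, the 74 that were also 2-fold above that array had a median OHT minus ethanol difference of 0.78 with DNMAML-ER. Of these 74, 65 were above 0, where 6294 of all 12150 genes were. At least 1.5-fold higher were 48, where 2.41% of all 12150 genes were. The other 54 had a median of 0.26, with 37 above 0 and 17 at least 1.5-fold higher. Both classes had like DAPT minus DMSO differences, with medians of 1.23 and 1.18.

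The lower genes parted in the same way. The 37 that were also 2-fold below the Notch1-ER ethanol array had a median DNMAML-ER difference of -0.89, with 36 below 0 and 29 at least 1.5-fold lower, where 1.32% of all genes were. The other 33 had a median of -0.15, with 23 below 0 and 5 at least 1.5-fold lower. Their median DAPT minus DMSO differences were -1.47 and -1.29. Over all 12150 genes the median DNMAML-ER difference was 0.01, with 6294 above 0 and 5852 below 0. The division by the other ethanol array was chosen after the data were seen, and the difference between the classes was not tested.

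The same reading in the Notch1-ER pair, with the division made on the DNMAML-ER ethanol array, gave smaller values. Of the higher genes, the 80 that were also 2-fold above that array had a median OHT minus ethanol difference of -0.13 with Notch1-ER, and the other 48 one of -0.07. At 1.5-fold, 11 of the 80 were lower and 3 higher, where 0.782% and 1.51% of all genes were. Of the other 48, 3 were lower and 6 higher. Of the lower genes, the 32 that were also 2-fold below had a median of 0.31, with 11 at least 1.5-fold higher and 3 lower. The other 38 had a median of 0.08, with 7 higher and 2 lower. The median over all genes was -0.01.

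Larger DAPT differences went with larger DNMAML-ER differences. Among genes higher with DAPT, the median DNMAML-ER difference was 0.32 for the 494 between 1.5-fold and 2-fold, 0.55 for the 105 between 2-fold and 3-fold, and 1.20 for the 23 at 3-fold or more. Among genes lower with DAPT, the medians were -0.23 for 280 genes, -0.37 for 48 and -1.01 for 22. Single genes departed from this. Of the 23 genes at least 3-fold higher with DAPT, 6 were below 0 in the DNMAML-ER pair, down to -1.47, and of the 22 at least 3-fold lower, 4 were above 0, up to 0.56. In the Notch1-ER pair the medians of the same classes were -0.01, -0.07 and -0.22 for higher genes, and -0.04, 0.08 and 0.40 for lower genes.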

How the data were processed

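The authors deposited log2 levels computed by RMA, per the submitters' processing notes, from Affymetrix arrays of biotin-labelled total RNA, per the labels' protocols. RMA corrects background, equalises the probe distributions of the arrays and summarises each probe set, so a change in the total RNA of a cell would not show. The model of the array, its annotation and the build were not given in the sources used here. Values ran from 1.51 to 14.0 with 0 missing, and the array medians from 5.43 to 5.61, lowest for DAPT.

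Differences were computed as treated minus vehicle with Python 3.11.15 and pandas 2.3.3, and alternative scalings with limma 3.58.1 in R 4.3.3. The counting was tested on simulated data, made of copies of the DMSO array with little noise and large planted differences in genes above the floor. That checks the counting alone and not its error on the real arrays. With 1 array per condition no test was made, and the number of arrays limits the precision. The genes, floor and sizes were chosen with earlier results of these data known. The naming rule took a longer run of the largest differences in each direction, and only those with a symbol. As no ID had one, the rule was cut to the 2 largest in each direction and applied to IDs. The 29 gene lists and 7 marker lists were not analysed here.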

Additional observations from a re-analysis of the deposited data

How the results depend on the processing

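The 2-fold count of DAPT against DMSO lay between 146 (floor on the mean level) and 276 (no floor, 56.5% of them higher) under the other scalings and floors, within 1.5 times the reported 198. The count beyond all 3 vehicle arrays lay between 76 (floor on the mean level) and 130 (centring on the median of all genes), against 97. Of the 198 genes, 175 were also counted after a second quantile normalization, 178 after cyclic loess and 168 after median centring. At 1.5-fold the counts were 972 and 518, because a smaller size counts more genes. Chosen after the data were seen, the median of the 3 vehicle arrays in place of DMSO gave 380 genes, 259 higher and 121 lower, and the mean of the ethanol arrays gave 473, 316 higher and 157 lower. These counts also hold differences between parental and fusion-carrying cells. Centring on the median of the 12150 genes left 48 higher and 37 lower genes beyond all 3 vehicle arrays, 56.5% higher against 70.1%, and centring on the median of all genes, added after the data were seen, left 111 and 19. The 4 printed genes moved by less than 0.19, the standard deviation across genes between the ethanol arrays, under the 3 scalings. Against the mean of the ethanol arrays, the difference of ENSMUSG00000072929 was 0.0042 in place of -2.97, so that none was left beyond that spread, and that of ENSMUSG00000033520 was -1.17 in place of -2.71. The OHT minus ethanol medians of the classes of 2-fold genes kept their sign under all 3 scalings, from 0.72 to 0.76 for the 74 higher genes in the DNMAML-ER pair and from -0.95 to -0.89 for the 37 lower ones. For the other 54 higher genes there, the median ran from 0.19 to 0.24. That of the other 33 lower genes was the least stable, from -0.22 (median centring) to -0.09 (second quantile normalization). No paired analysis was possible because each condition has 1 array. Alternatives for the gene lists were not run, since no ID could be named.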
